A study of Mus musculus with 6 samples.

Results

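Pisd, its transcribed copies Pisd-ps1 and Pisd-ps2, and the 6 genes Ptdss1, Ptdss2, Etnk1, Pcyt2, Selenoi and Cept1 were described in mouse hippocampus with and without the microRNA miR-301a. These 9 genes of the 54393 in the deposited table were chosen by name, as Pisd and the annotated genes named after it together with the enzymes that make the same membrane lipids. The choice was made with the difference between the genotypes already known, so the values below describe these genes and are no independent test of them. All 9 reached the minimum level set for testing, a value of at least 1 in 3 libraries, and were among the 14708 genes tested.

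Poly(A) RNA was sequenced from the hippocampus of 3 miR-301a-/- libraries, named here knockout 1-1, 2-2 and 3-1 after their titles, and of 3 wild-type libraries, named 1-1, 2-1 and 2-2. Both groups are C57BL/6 mice aged 6 to 8 weeks and untreated. The labels do not say how the miR-301a allele was made, in which cells it is absent, or whether each library is a separate animal, so the tests measure the spread between these libraries. The comparison asks which transcripts differ when miR-301a is absent.

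Phosphatidylserine and phosphatidylethanolamine are the aminophospholipids of animal membranes. Phosphatidylserine is made in the endoplasmic reticulum by exchange of a head group, and phosphatidylserine decarboxylase, the product of Pisd, converts it to phosphatidylethanolamine at the inner mitochondrial membrane. A separate route in the endoplasmic reticulum, the ethanolamine branch of the Kennedy pathway, builds phosphatidylethanolamine from free ethanolamine, and both lipids are abundant in the membranes of the brain.

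The microRNA removed in the knockout is shown because the seed, its nucleotides 2 to 8, fixes which letters were searched for in these genes. The mature sequences are from RefSeq on GRCm38.p6, written 5′ to 3′, and the seed is in capitals. mmu-miR-301a-3p lies at chr11:87113054-87113076 on the plus strand, mmu-miR-130b-3p at chr16:17124071-17124092 on the minus strand and mmu-miR-130a-3p at chr2:84741116-84741137 on the minus strand. The last pair is shown because it carries the same seed and is encoded elsewhere in the genome. mmu-miR-301b-3p was also sought by name without a match, so these need not be all the microRNAs with this seed.
mmu-miR-301a-3p: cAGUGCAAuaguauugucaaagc
mmu-miR-130b-3p: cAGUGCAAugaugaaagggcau
mmu-miR-130a-3p: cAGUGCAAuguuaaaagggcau

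Pisd lies on chromosome 5 of GRCm38 at 32736301 to 32785646 on the minus strand (ENSMUSG00000023452.19, protein coding). Pisd-ps1 lies on chromosome 11 at 3125904 to 3131004 on the plus strand (ENSMUSG00000082286.10), and Pisd-ps2 on chromosome 17 at 3076578 to 3084183 on the minus strand (ENSMUSG00000023795.16). GENCODE M21 annotates both copies as transcribed unprocessed pseudogenes, a class of gene copies that keep introns, carry no annotated coding sequence and are transcribed. Both have 7 exons in the transcript aligned here, and exons of 166, 237, 139 and 147 nt occur in Pisd and in both copies. An exon of 161 nt occurs in Pisd and Pisd-ps1, and the exon at that place in Pisd-ps2 has 154 nt. The 1115-nt transcript of Pisd-ps1 aligned over its whole length to nucleotides 558 to 1685 of a 2491-nt Pisd transcript. That span is the whole annotated coding sequence of 1128 nt. There were 53 differences, an identity of 95.2%, and 3 gaps that left out 13 nt of Pisd. Pisd-ps2 aligned over 1046 of its 1175 nt to nucleotides 611 to 1681 of Pisd. It had 39 differences, an identity of 96.3%, and 3 gaps that left out 25 nt of Pisd. The copies matched each other at 96.5% over 1043 aligned nt, with 6 gaps. Identity counts aligned letters only.

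**Figure D1:**
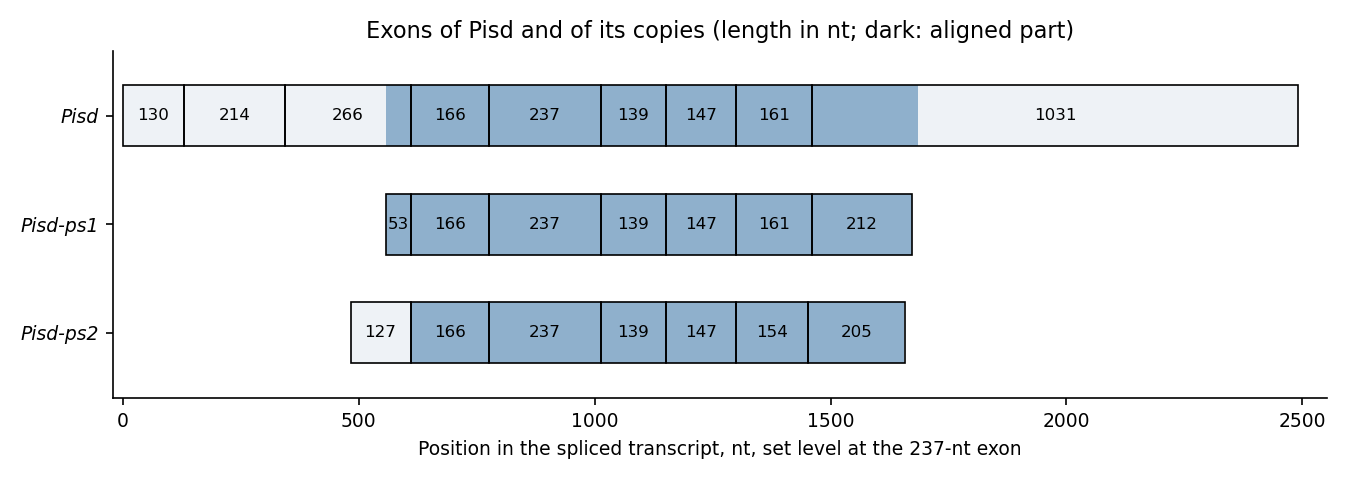
Exons of Pisd, Pisd-ps1 and Pisd-ps2 drawn to scale along the spliced transcript (x axis, nt), with each exon's length written inside it and the rows set level at the 237-nt exon. Dark shading marks the aligned part. In the row of Pisd this is the part aligned with Pisd-ps1, the coding sequence from nucleotide 558 to 1685. Pisd-ps2 aligned to nucleotides 611 to 1681 of Pisd. The exons of 166, 237, 139 and 147 nt appear in all 3 rows.

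A pair of 90-nt stretches from the 237-nt exon shows how far the 3 transcripts can be told apart by sequence. They are GENCODE M21 transcript sequence on GRCm38, 5′ to 3′ along the transcript, and capitals mark the positions at which the 3 differ. Only stretches of the coding sequence of Pisd that lie within 1 exon of each gene and align without a gap were compared. The first is the aligned stretch with the fewest differences, 1 position, at chr5:32739223-32739312 (minus strand) in Pisd, chr11:3128990-3129079 (plus strand) in Pisd-ps1 and chr17:3079441-3079530 (minus strand) in Pisd-ps2. In it Pisd-ps2 is letter for letter identical to Pisd.
Pisd: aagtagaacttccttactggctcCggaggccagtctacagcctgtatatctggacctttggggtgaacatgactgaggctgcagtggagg
Pisd-ps1: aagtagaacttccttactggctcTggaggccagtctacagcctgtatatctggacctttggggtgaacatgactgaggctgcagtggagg
Pisd-ps2: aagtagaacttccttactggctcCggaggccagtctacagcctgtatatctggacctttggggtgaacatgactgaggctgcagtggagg

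The second is the stretch with the most differences, 10 positions, at chr5:32739145-32739234 (minus strand) in Pisd, chr11:3129068-3129157 (plus strand) in Pisd-ps1 and chr17:3079363-3079452 (minus strand) in Pisd-ps2. Each copy differs there from Pisd at 8 positions.
Pisd: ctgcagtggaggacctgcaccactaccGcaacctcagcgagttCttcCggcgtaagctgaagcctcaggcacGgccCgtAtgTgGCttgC
Pisd-ps1: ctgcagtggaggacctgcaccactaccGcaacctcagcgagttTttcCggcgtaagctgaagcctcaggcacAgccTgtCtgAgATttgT
Pisd-ps2: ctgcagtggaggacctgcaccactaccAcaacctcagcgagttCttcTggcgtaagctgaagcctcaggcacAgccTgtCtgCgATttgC

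The shared sequence matters for the values that follow. A read that lies wholly inside a stretch found in several genes cannot be placed in 1 of them. Read length was not used here, and a read longer than 50 nt may be placed by letters outside such a stretch. Of the distinct 50-nt stretches in annotated transcripts, 202 of 1768 in Pisd-ps1 (11.4%) and 277 of 2152 in Pisd-ps2 (12.9%) also occurred in another annotated gene, 164 and 213 of them in Pisd itself. In Pisd the shared stretches were 1150 of 6203 (18.5%), of which 1113 occurred in Gm20671, a gene annotated across Pisd and its neighbour Prr14l and listed at 0 in all 6 libraries. Gm20671, and likewise Gm43695, also at 0 in all 6 libraries, overlaps Pisd on the same strand. A stretch shared with them is therefore not in itself a second place in the genome. Of the Pisd stretches, 2.64% occurred in Pisd-ps1 and 3.43% in Pisd-ps2. The 6 synthesis genes had no shared stretch of that length. The sources used here do not say how the authors treated reads with several matches or reads in overlapping genes. The split of reads among Pisd and its copies, and the level of Pisd against them, are therefore uncertain. A further copy that RefSeq names Pisd-ps3 was not analysed here.

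The mouse transcripts of Pisd and of Pisd-ps2 hold the 7 letters TTGCACT, which pair with the seed of miR-301a-3p, and those of Pisd-ps1 do not. In Pisd the match lies in the coding sequence and was found in 11 of 14 annotated transcripts, with none in the longest annotated 3′ UTR (984 nt). It was found in all 3 transcripts of Pisd-ps2 and in 0 of 4 of Pisd-ps1, where the letters at the aligned place differ at 1 position. The share of all genes with a match in coding sequence, or in transcripts without one, was not computed. The aligned places are shown with those 7 letters in capitals, at chr5:32739137-32739159 (minus strand), chr11:3129143-3129165 (plus strand) and chr17:3079355-3079377 (minus strand).
Pisd: ccgtatgtggcTTGCACTgtgtg
Pisd-ps1: ctgtctgagatTTGTACTgtgtg
Pisd-ps2: ctgtctgcgatTTGCACTgtgtg

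Among the 6 synthesis genes, Etnk1 and Selenoi each hold 1 match in their longest annotated 3′ UTR, searched on the strand of the transcript. The match of Etnk1 is at position 1265 of 5090 nt (chr6:143204710-143204738, plus strand) and that of Selenoi at position 1273 of 5428 nt (chr5:30268261-30268289, plus strand). Ptdss1, Ptdss2, Pcyt2 and Cept1 hold none there. Of the 12745 tested genes with an annotated 3′ UTR, 1558 (12.2%) hold this match. The median 3′ UTR of these genes is 1250 nt, shorter than those of Etnk1 and Selenoi. A match of letters is a description and does not show binding.
Etnk1: tcagacaggctTTGCACTttggtcacata
Selenoi: ttttggacaggTTGCACTtggataaaata

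The values were read as FPKM-like, that is, reads per length of gene and depth of library, so that levels can be set side by side between genes. The depth of the libraries, as implied by the value of 1 read in short genes, was 16.9 to 27.0 in the knockout and 20.1 to 28.2 in the wild type, in units of 1e+06 reads. The microRNA gene itself (Mir301, chromosome 11, 87113004 to 87113089) was listed at 0 in all 6 libraries, so the poly(A) values do not check the genotype labels, and its host gene Ska2 had a log2 fold change of -0.06 (SE 0.09). All 6 neuron markers examined were expressed, with summed values of 2588 to 3268 in the knockout and 2629 to 2918 in the wild type. Choroid plexus markers, 3 of 3 higher on average in the knockout, summed to 8.54 to 19.1 in the knockout and 6.19 to 8.21 in the wild type, mostly through Ttr, whose values were 12.2, 10.7 and 2.74 in the knockout and 1.68, 1.41 and 2.57 in the wild type. Oligodendrocyte markers, 5 of 5 lower on average in the knockout, summed to 1997 to 2975 in the knockout and 2393 to 3622 in the wild type. Of the other markers, those with a positive log2 fold change, knockout minus wild type, were 5 of 6 for neurons, 0 of 3 for CA1 and 3 of 3 for CA3 pyramidal cells, 1 of 3 for dentate granule cells and 1 of 4 for astrocytes. They were 2 of 2 for oligodendrocyte precursors, 3 of 4 for microglia, 1 of 3 for endothelium, 3 of 3 for ependyma and 4 of 4 for erythroid cells. No marker of any list was called by limma, and the part of these markers in the results below was not tested. In tissue RNA such as this, fewer cells of a type and less RNA per cell cannot be told apart.

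Pisd-ps1 was the member with the largest difference between the genotypes. It had values of 68.8, 76.8 and 65.7 in knockout 1-1, 2-2 and 3-1, against 33.8, 37.0 and 32.8 in wild type 1-1, 2-1 and 2-2. The lowest knockout library lay above the highest wild-type library by a wide margin, and the groups did not overlap. The mean was 70.4 ± 5.77 in the knockout and 34.5 ± 2.20 in the wild type (SD, n = 3 each), a ratio of 2.04. On the log2(value + 1) scale used for all fold changes here, the fitted difference was 1.01 (SE 0.08, 95% interval 0.82 to 1.19), and Pisd-ps1 rose past the threshold of limma's test with Benjamini-Hochberg adjustment over the 14708 genes.

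Of all tested genes, 0.109% passed that threshold in either direction and 0.0544% passed it as higher in the knockout, which is 16 and 8 genes. Pisd-ps1 ranked 66th of 14708 by signed fold change, within the top 0.449%. It was the 1 of the 9 members that passed. Since it was chosen with this result known, nothing is read from that count. The threshold was no longer passed when any 1 of the 3 wild-type libraries was left out, when the filter on low values was dropped, or when only 4 libraries were used with their code as a block, while the fold change lay between 0.94 and 1.10 over all 11 alternatives. In the authors' deposited table Pisd-ps1 had a log2 fold change of 1.03, a p-value of 0.000303 and an adjusted p-value of 0.852. At its length of 1757 exonic nt its values stand for at most 1170 to 3268 reads per library.

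Pisd-ps2, the less abundant copy, had values of 12.9, 15.8 and 13.3 in the knockout libraries, against 8.27, 8.53 and 8.08 in the wild-type libraries. Knockout 2-2 was the highest library for both copies, and the groups did not overlap. The mean was 14.0 ± 1.58 in the knockout and 8.29 ± 0.224 in the wild type (SD, n = 3 each), a ratio of 1.68. The log2 fold change was 0.68 (SE 0.09, 95% interval 0.46 to 0.90), and it did not pass the test over all genes. These values stand for at most 346 to 733 reads per library, the lowest number among the 9 genes. The authors' deposited table gave a log2 fold change of 0.75, a p-value of 0.378 and an adjusted p-value of 1.0 for Pisd-ps2.

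Pisd, the gene that encodes the enzyme, differed less. Its values were 44.8, 42.7 and 43.0 in the knockout libraries, against 37.2, 33.6 and 35.2 in the wild-type libraries. The groups did not overlap, and the libraries within each genotype lay close together. The mean was 43.5 ± 1.11 in the knockout and 35.3 ± 1.82 in the wild type (SD, n = 3 each), a ratio of 1.23. The log2 fold change was 0.29 (SE 0.06, 95% interval 0.15 to 0.44) and did not pass the test over all genes. The authors' deposited log2 fold change for Pisd was 0.30, with a p-value that was not under 0.05.

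**Figure D2:**
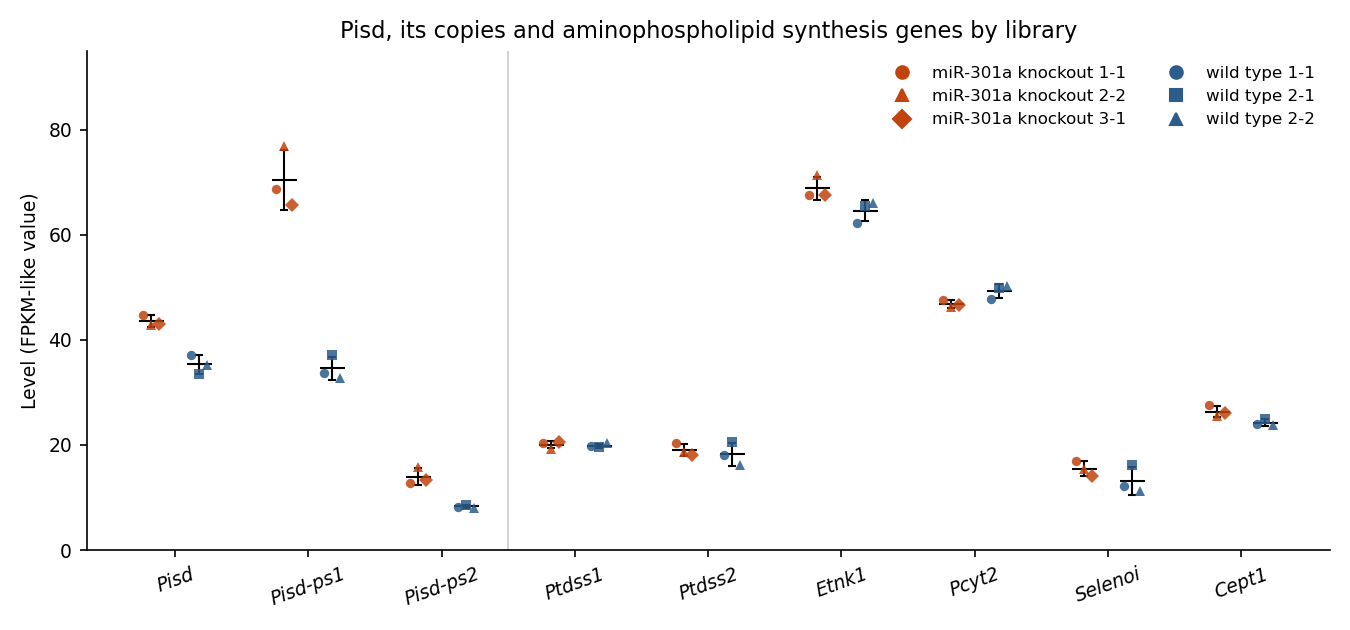
Level (y axis, FPKM-like value) of the 9 genes in each of the 6 libraries, knockout to the left of wild type for each gene, with points for libraries and black bars for the mean and SD of 3 libraries. Pisd-ps1 lies at 65.7 to 76.8 in the knockout and 32.8 to 37.0 in the wild type, while Ptdss1 and Ptdss2 lie at 16.2 to 20.5 in all 6 libraries.

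Within each library the balance among Pisd and its copies also differed by genotype. The value of Pisd-ps1 was 1.54, 1.80 and 1.53 times that of Pisd in the knockout libraries, against 0.908, 1.10 and 0.933 times in the wild-type libraries. By these values Pisd-ps1 was above Pisd in every knockout library, and in the wild type the genes lay at about the same level. That order rests on scaling by length, 5750 exonic nt for Pisd and 1757 for Pisd-ps1. In reads the upper limits were higher for Pisd, at most 3877 to 6964 per library, against 1170 to 3268 for Pisd-ps1. The ratio of Pisd-ps2 to Pisd was 0.322 ± 0.0425 in the knockout and 0.235 ± 0.0166 in the wild type, and that of Pisd-ps1 to Pisd-ps2 was 5.05 ± 0.259 in the knockout and 4.16 ± 0.155 in the wild type (SD, n = 3 each). None of these ratios overlapped between the groups, which was not set against the share among other pairs of genes. The ratios reuse the same values of genes chosen with the difference known, so they are not separate observations.

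The values of Pisd, Pisd-ps1 and Pisd-ps2 were also summed within each library. The sum was 126.4, 135.4 and 122.0 in the knockout libraries, against 79.2, 79.1 and 76.1 in the wild-type libraries. The groups were far apart, with means of 127.9 ± 6.82 in the knockout and 78.2 ± 1.77 in the wild type (SD, n = 3 each), a ratio of 1.64. Pisd itself made up 34.1% ± 2.18 of the sum in the knockout and 45.2% ± 2.43 in the wild type. Each value in the sum is scaled by that gene's own length, so this is not a share of reads.

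**Figure D3:**
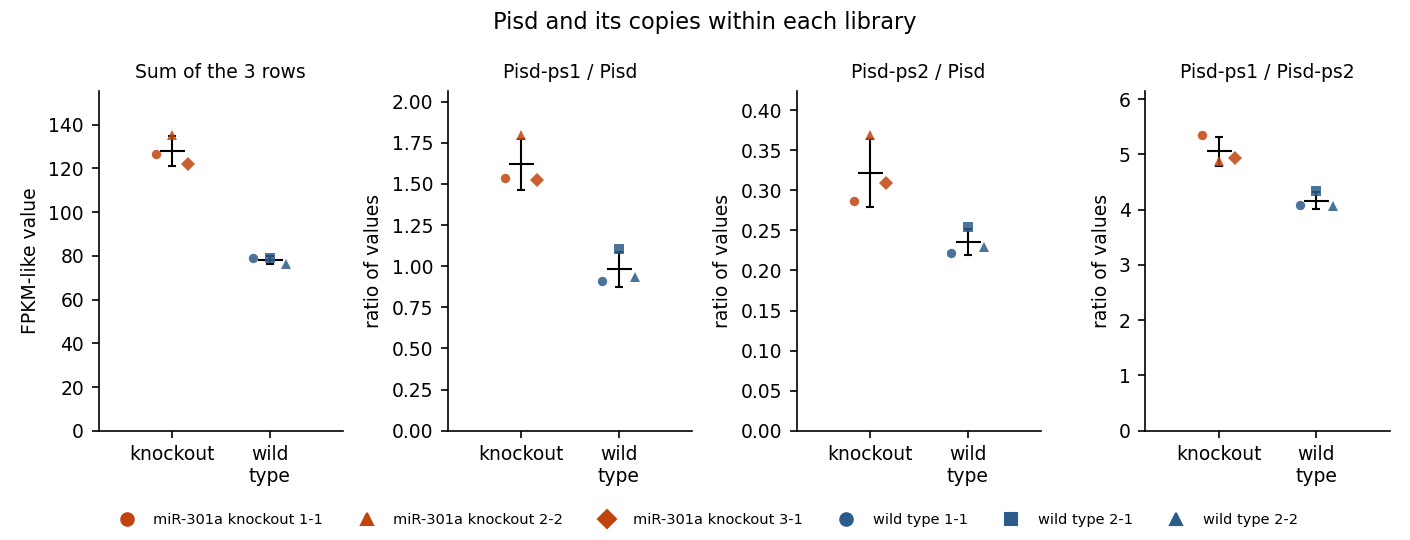
Sum of the values of Pisd, Pisd-ps1 and Pisd-ps2 (first panel, FPKM-like value) and ratios between their values (other panels) in each library, knockout to the left of wild type, with black bars for the mean and SD of 3 libraries and every y axis starting at 0. In each of the 4 panels all 3 knockout libraries lie above all 3 wild-type libraries, for example 122.0 to 135.4 against 76.1 to 79.2 for the sum. The panels reuse the same values and are not separate observations.

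The genes around the copies were examined to see whether a difference extended to the surrounding region. Of 28 annotated genes within 100 kb of Pisd, Pisd-ps1 or Pisd-ps2, 10 were tested, and limma called 0 of them, against 0.109% of all tested genes. At an unadjusted p under 0.05 there was 1 of the 10, against 841 of all 14708 tested genes. That gene was Prr14l, which encodes a proline-rich protein and lies 4174 bases from Pisd on the same strand (ENSMUSG00000054280.14, chromosome 5, 32789820 to 32854256). Its values were 12.8, 13.3 and 11.0 in the knockout libraries, against 7.70, 7.74 and 8.21 in the wild-type libraries. The groups did not overlap, with means of 12.4 ± 1.22 in the knockout and 7.89 ± 0.281 in the wild type (SD, n = 3 each), and the log2 fold change was 0.59 (SE 0.09). The authors' deposited values for Prr14l were a log2 fold change of 0.65 and a p-value of 0.540, from a test they do not name.

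The other 9 tested neighbours had overlapping groups and log2 fold changes between -0.13 and 0.18. They are Yes1, Depdc5 and Gm2623 near Pisd, Sfi1, Drg1 and Eif4enif1 near Pisd-ps1, and Scaf8, Gm21926 and Gm4829 near Pisd-ps2. Sfi1, which codes for a centrosomal protein and lies beside Pisd-ps1 on the opposite strand, had a log2 fold change of 0.18 (SE 0.16). Prr14l shared no 50-nt stretch with Pisd or its copies. It shared 1392 of its 10445 stretches (13.3%) with Gm20796 and Gm20671, both listed at 0 in all 6 libraries.

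Phosphatidylserine is made by 2 synthases that exchange head groups, of which the product of Ptdss1 uses phosphatidylcholine and that of Ptdss2 uses phosphatidylethanolamine. Ptdss1 (chromosome 13, 66932830 to 66998401) had values of 20.4, 19.2 and 20.5 in the knockout libraries, against 19.8, 19.5 and 20.3 in the wild-type libraries. The groups overlapped and every library lay within a narrow band, and the log2 fold change was 0.01 (SE 0.06, 95% interval -0.13 to 0.16). Ptdss2 (chromosome 7, 141122382 to 141157606) had 20.3, 18.6 and 18.2 in the knockout libraries, against 18.1, 20.5 and 16.2 in the wild-type libraries. Wild type 2-1 was the highest library and wild type 2-2 the lowest, so the groups overlapped. The log2 fold change of Ptdss2 was 0.06 (SE 0.10, 95% interval -0.17 to 0.29). The ratio of Ptdss1 to Ptdss2 was 1.06 ± 0.0665 in the knockout and 1.10 ± 0.151 in the wild type (SD, n = 3 each). The signs of both fold changes depended on the libraries used, since Ptdss1 was negative in 2 and Ptdss2 in 1 of 11 alternatives. Ptdss1 overlaps Mterf3 and 4933433G19Rik on the opposite strand, and the use of strand in counting is not stated.

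The ethanolamine branch begins with ethanolamine kinase, encoded by Etnk1 (chromosome 6, 143167221 to 143232307). Etnk1 had values of 67.5, 71.3 and 67.6 in the knockout libraries, against 62.3, 65.4 and 66.0 in the wild-type libraries. The groups did not overlap, although the gap between them was small. The mean was 68.8 ± 2.18 in the knockout and 64.6 ± 1.97 in the wild type (SD, n = 3 each), with a log2 fold change of 0.09 (SE 0.05, 95% interval -0.04 to 0.22).

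Pcyt2 encodes the enzyme that makes CDP-ethanolamine, the regulated step of the branch (chromosome 11, 120610087 to 120617936). It had 47.6, 46.2 and 46.7 in the knockout libraries, against 47.8, 49.8 and 50.2 in the wild-type libraries. It was the 1 member whose knockout libraries all lay below the wild-type libraries, with means of 46.8 ± 0.691 in the knockout and 49.3 ± 1.30 in the wild type (SD, n = 3 each). The log2 fold change was -0.07 (SE 0.05, 95% interval -0.19 to 0.05).

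The last step joins CDP-ethanolamine to diacylglycerol and is carried out by the products of Selenoi, an ethanolamine phosphotransferase and selenoprotein, and of Cept1, which accepts choline as well. Selenoi (chromosome 5, 30232581 to 30272427) had 16.9, 15.5 and 14.2 in the knockout libraries, against 12.1, 16.2 and 11.1 in the wild-type libraries. Wild type 2-1 lay among the knockout libraries, so the groups overlapped. Selenoi varied most within the wild type, and its log2 fold change of 0.23 had a wide error (SE 0.14, 95% interval -0.10 to 0.57). Cept1 (chromosome 3, 106502260 to 106547802) had 27.5, 25.5 and 26.1 in the knockout libraries, against 23.9, 25.0 and 23.8 in the wild-type libraries. The groups did not overlap, and the log2 fold change was 0.12 (SE 0.06, 95% interval -0.03 to 0.26). Cept1 overlaps Dram2 and Dennd2d on the opposite strand.

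**Figure D4:**
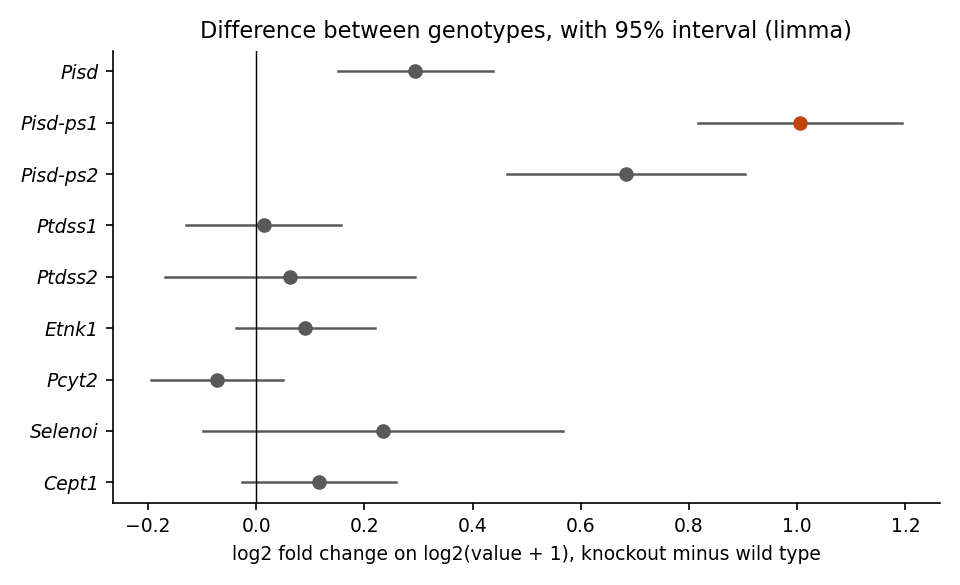
Fitted log2 fold change of the 9 genes on the log2(value + 1) scale, knockout minus wild type (x axis), with lines for the 95% interval from limma and the gene that passed the test in colour. Pisd-ps1 lies at 1.01, Pisd-ps2 at 0.68 and Pisd at 0.29, with intervals above 0, and the intervals of the 6 synthesis genes all cross 0.

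Over the 9 genes, 8 fold changes were positive and 1 negative, with a median of 0.12, against a median of -0.00383 over all tested genes. For 5 of the 9, all knockout libraries lay above all wild-type libraries, an arrangement found for 5.7% of all tested genes, and for 1 of the 9 all lay below, found for 5.67%. Pisd, Pisd-ps1 and Pisd-ps2 are 3 of those 5, and they share sequence. All 9 genes were chosen with the difference known, so nothing is read from these counts or this median. Among the 6 synthesis genes alone the numbers above and below were 2 and 1, with a median fold change of 0.08. Limma called 0 of these 6, and 0 had an unadjusted p under 0.05. Their intervals leave room for differences in either direction, so equal expression in the 2 genotypes is not shown. In the authors' deposited table all 6 had a p-value of 1.0.

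Ordered by level, the knockout ran from Pisd-ps1 and Etnk1, whose ranges overlapped, through Pcyt2, Pisd, Cept1, Ptdss1 and Ptdss2 to Selenoi and Pisd-ps2. Ptdss1 and Ptdss2 overlapped with each other, as did Selenoi and Pisd-ps2, and the remaining neighbours in that order did not. In the wild type the order was Etnk1, Pcyt2, Pisd, Pisd-ps1, Cept1, Ptdss1, Ptdss2, Selenoi and Pisd-ps2. Here Pisd overlapped with Pisd-ps1, Ptdss1 with Ptdss2, and Ptdss2 with Selenoi. Pisd-ps1 thus came first in the knockout by mean only (70.4 against 68.8 for Etnk1), and was level with Pisd in the wild type. In knockout 3-1 Etnk1 (67.6) lay above Pisd-ps1 (65.7). Pisd had a higher mean level than 83.2% of tested genes, Pisd-ps1 than 87.9% and Pisd-ps2 than 51.0%.

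The genes most alike to Pisd-ps1 were ranked by Pearson correlation of log2 values over the 6 libraries, which share the genotype difference itself, so the values are descriptions. They were Rhbdl3 (0.996), Gm12208 (0.994), Dnajb9 (0.993), Pisd-ps2 (0.989) and Amd2 (0.988). Prr14l ranked 20th at 0.973 and Pisd 105th at 0.916. Gm12208 had values of 10.6, 16.9 and 7.26 in the knockout and was listed at 0 in all 3 wild-type libraries. For Pisd the most alike were Ajap1 (0.989), Gtpbp4 (0.986), Vcpip1 (0.984), Spock3 (0.982) and Gemin2 (0.979). The lists of 5 for Pisd-ps1 and for Pisd had no gene in common, although these genes themselves correlated at 0.916. Lists this short do not show that the patterns differ.

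The wider lipid pathway was described with 8 lists of genes that act next to these enzymes, 88 genes in all, of which 81 were tested. Limma called 0 of the 81, and 2 had an unadjusted p under 0.05, against 841 of all 14708 tested genes. Fold changes were positive for 51 and negative for 30, with a median of 0.03, against 7178 positive and 7530 negative among all 14708 tested genes. For 4 of the 81 the knockout libraries all lay above the wild-type libraries and for 1 they all lay below, against 5.7% and 5.67% of all tested genes. The 2 genes with an unadjusted p under 0.05 are named after their values were seen. Etnppl, whose product breaks down phosphoethanolamine, had 5.58 ± 0.307 in the knockout and 4.21 ± 0.634 in the wild type, and Cds1, a CDP-diacylglycerol synthase, had 20.5 ± 3.18 in the knockout and 25.5 ± 2.73 in the wild type (SD, n = 3 each).

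Of the lists that use the same precursors, the choline branch and methylation of phosphatidylethanolamine had 3 positive and 4 negative of 7 genes, with a median log2 fold change of -0.05. Its most abundant genes were Chka, the choline kinase (50.9 ± 8.06 in the knockout and 44.7 ± 2.46 in the wild type), and Chpt1, a cholinephosphotransferase (15.9 ± 2.41 in the knockout and 16.7 ± 0.946 in the wild type). Supply of phosphatidic acid and diacylglycerol had 7 positive and 2 negative of 9 tested, median 0.04, led by the acyltransferases Agpat3 (log2 fold change 0.05) and Agpat1 (-0.02). The CDP-diacylglycerol and cardiolipin list had 4 positive and 4 negative of 8, median 0.01. Cds2, the more abundant synthase of CDP-diacylglycerol, had 93.8 ± 1.22 in the knockout and 86.5 ± 4.97 in the wild type, without overlap of the groups, and Cdipt, which makes phosphatidylinositol, had 90.8 ± 4.06 in the knockout and 87.5 ± 6.20 in the wild type. Ether lipid synthesis had 3 positive and 4 negative of 7, median -0.03, led by Far1 (log2 fold change 0.07), which makes fatty alcohols, and Gnpat (0.03), a peroxisomal acyltransferase.

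The remaining lists cover movement and turnover of the aminophospholipids and the supply of serine. Lipid transfer to mitochondria and contact sites had 5 positive and 9 negative of 14 tested, with a median of -0.03. Prelid1, which takes part in lipid transfer between the mitochondrial membranes, had 62.9 ± 4.21 in the knockout and 64.8 ± 4.12 in the wild type, and Mfn2, a mitofusin of the outer mitochondrial membrane, had 62.1 ± 0.723 in the knockout and 62.2 ± 3.09 in the wild type. The phosphatidylserine flippases and scramblases, which set on which side of the membrane this lipid lies, had 13 positive and 1 negative of 14 tested, with a median of 0.06. Atp8a1, a flippase, had 39.5 ± 2.22 in the knockout and 35.9 ± 1.30 in the wild type with overlapping groups, and its partner subunit Tmem30a had 123.4 ± 6.57 in the knockout and 119.7 ± 4.03 in the wild type. Turnover of phosphatidylethanolamine had 9 positive and 2 negative of 11, median 0.07, led by Gde1 (log2 fold change -0.02), a phosphodiesterase, and Faah (0.10), the fatty acid amide hydrolase. Serine supply had 7 positive and 4 negative of 11 tested, median 0.02, led by Serinc1 (log2 fold change 0.06) and Serinc3 (0.02).

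**Figure D5:**
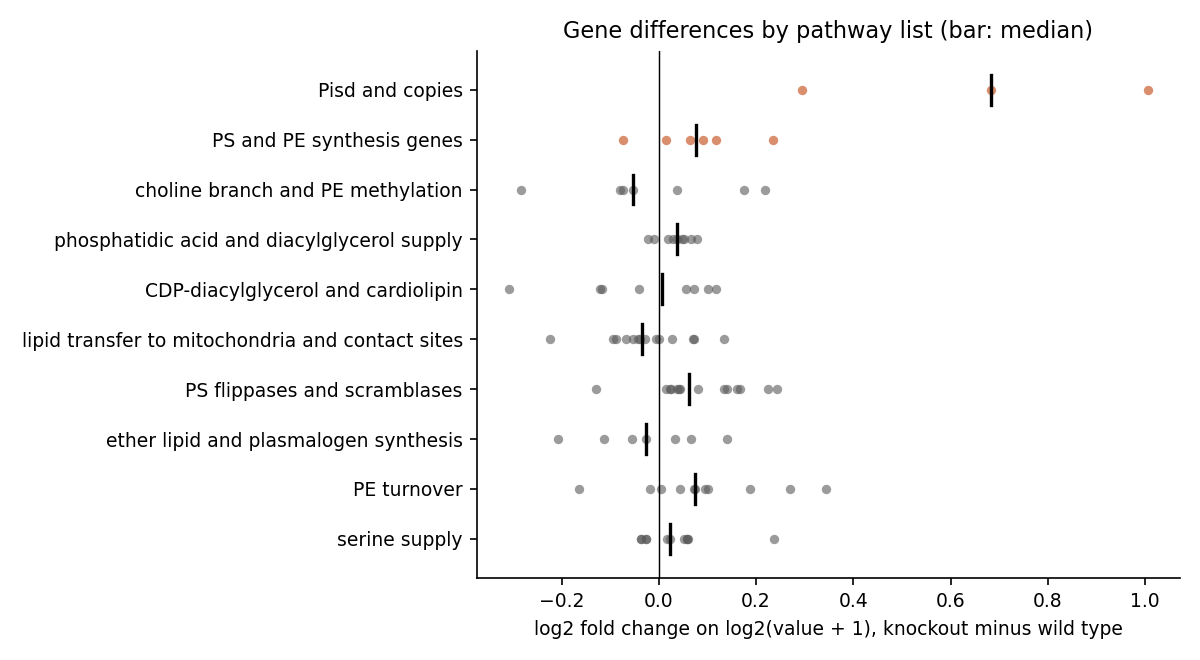
Fitted log2 fold change on the log2(value + 1) scale, knockout minus wild type (x axis), of every tested gene in each list (points) with the list's median (black bar), the first rows being Pisd with its copies and the 6 synthesis genes. The copies reach 1.01, whereas the medians of the 8 pathway lists lie between -0.05 and 0.07.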

How the data were processed

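The deposited table held 1 value per gene and library from hippocampal poly(A) RNA. Its unit is not named; the values were read as FPKM, as deposited by the authors, since 1 read was worth less in longer genes and column sums differed. In genes of up to 160 nt, 91.5% to 98.6% of values above 0 lay on whole-read steps (within 0.2%), which gave the depths and upper limits on reads. Tools listed are bcl2fastq, HISAT2 2.1.0 and HTSeq, and the build is mm10, per the submitters' processing notes. A design text for the series instead names BWA, TopHat and Cufflinks. Library fragments of 250 to 300 bp were preferred, per the labels' protocols. The log2 fold changes and p-values in the authors' deposited table come with no named test.

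Genotype was fitted to log2(value + 1) by limma 3.58.1 (R 4.3.3, empirical Bayes prior with a mean trend, two-sided tests). The 14708 genes that reached a value of 1 in 3 or more libraries were tested. Calls needed an adjusted p under 0.05 (Benjamini-Hochberg). This scale understates changes of low values. Each genotype had 3 libraries. No interval from counting was computed, since exact read counts were not used here.

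Positions and transcripts came from GENCODE M21 (GRCm38), in which all 54393 gene identifiers were found; positions are 1-based. Pairwise alignments used Biopython 1.88 in Python 3.11.15, and 50-nt stretches were compared over all annotated transcripts. All 3 microRNAs shown matched RefSeq entries by name.

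The members and all lists were chosen with earlier results of these data known. The text names the 9 members, tested genes within 100 kb of Pisd or its copies, the 2 most abundant tested genes of each pathway list, and the 5 genes most correlated with Pisd-ps1 and with Pisd. Markers of 12 cell types were also listed. Alternatives were another pseudocount (0.1), no filter, median-ratio scaling, no trend, each library left out, and a replicate block.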

Additional observations from a re-analysis of the deposited data

How the results depend on the processing

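The number of called genes, 16, was 16 with median-ratio scaling, 19 with a pseudocount of 0.1 and 12 without the trend, but 4 without the filter on low values, where 30879 genes were tested. It was 4 to 17 when 1 library was left out. Without knockout 2-2 it was 6, without wild type 2-1 it was 4 and without wild type 2-2 it was 6. The number of called members, 1 (Pisd-ps1), was 0 without the filter and 0 to 1 when 1 library was left out, being 0 without each wild-type library and 1 without each knockout library. The number of called pathway genes was 0 under every alternative run. The causes were not tested.

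The codes 1-1 and 2-2 occur in both genotypes. Fitted as a replicate block on those 4 libraries, limma called 0 genes, 0 members and 0 pathway genes, with fewer libraries than the 6 of the full fit. Deviations of same-coded libraries correlated at -0.0986 and -0.0606. Libraries with different codes were not compared in this way, so these values do not decide whether the codes pair the libraries. The main fit used no pairing.

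Over the 11 alternatives the log2 fold change of Pisd lay between 0.26 and 0.33, that of Pisd-ps2 between 0.60 and 0.74 and that of Selenoi between 0.13 and 0.44. It lay between -0.01 and 0.04 for Ptdss1 and between -0.02 and 0.18 for Ptdss2. Etnk1 (0.06 to 0.11), Cept1 (0.09 to 0.15) and Pcyt2 (-0.09 to -0.06) each kept their sign. The count-based test planned for a table of counts was not run, because the table holds none. With 3 libraries a group and no read counts, differences of the size fitted for the 6 synthesis genes lay within their 95% intervals of 0.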
